A study of Drosophila melanogaster with 28 samples.

Results

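The proteasome degrades proteins that carry ubiquitin chains. Its 20S core particle is a barrel of alpha and beta rings with the proteolytic sites inside, and its 19S regulatory particle caps the barrel, where a ring of ATPases (Rpt subunits) unfolds the substrate and other subunits (Rpn) bind ubiquitin or remove it. In the early fly embryo the mother supplies these mRNAs, and protein degradation accompanies the maternal-to-zygotic transition (MZT), when maternal mRNAs are cleared and the zygotic genome is switched on. PABP binds the poly(A) tail, and ME31B is the fly DDX6 helicase, known as a repressor of maternal mRNAs. The genes described here were the *Drosophila* rows whose symbol began with *Pros*, or with *Rpn* or *Rpt* and a digit. They were 48 of the 16768 fly genes listed in all 3 deposited tables. By symbol, 14 encode the 20S core particle (7 alpha and 7 beta subunits) and 18 the 19S regulatory particle (6 ATPases and 12 others), 15 are paralogs with an R or T after the subunit's name, and 1, *Prosap*, is a synaptic scaffold gene that only shares the letters and was left out of every count.

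The libraries came from whole embryos and from S2 cells, a macrophage-like line, and each condition had 1 deposited library, so no difference below has a replicate check and no p-value is given. *png50* embryos, homozygous for a hypomorphic allele of the PNG kinase gene, gave input (total) RNA at 0–1 and 2–3 hr after egg-laying. *eGFP-me31B;png50* embryos combined that allele with the eGFP-tagged *me31B* and gave an ME31B immunoprecipitate (IP) and its input at 0–1 hr. *eGFP-ME31B* embryos, from a protein trap line whose tagged protein was precipitated with anti-GFP, gave an ME31B IP and input at each hour to 4–5 hr. *w1118* embryos, the untagged strain used as wild type, gave a PABP IP and input at the same 5 ages. S2 cells transfected with an eGFP-ME31B plasmid gave an ME31B IP and input, and untransfected S2 cells a PABP IP and input. The tagged ME31B in S2 cells was thus expressed from a plasmid, unlike in embryos.

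Values are FPKM, which divide fragment counts by transcript length and library size, so levels can be set beside each other between genes. The estimated depth was between 9.99 M and 17.4 M reads (M, megareads) per library. The fewest estimated reads of a detected 20S or 19S subunit were about 122, for *Rpn7* in the PABP IP at 2–3 hr. The summed fly FPKM of the *w1118* inputs was 302478 at 0–1 hr and 125101 at 1–2 hr, against 658332 to 1160520 in the 13 other inputs, so a change over these ages depends on the scaling. Changes are therefore given relative to the median gene of each comparison, and the ratio of 20S to 19S levels within a library, which no scaling touches, is given first. In total RNA of whole embryos, loss of maternal mRNA and new transcription cannot be told apart. A change throughout the embryo and a change in part of it cannot be either. The summed FPKM of 4 maternal markers (*bcd*, *osk*, *nos*, *gnu*) was 85.4 at 4–5 hr against 2021 at 0–1 hr in *eGFP-ME31B* inputs, 20.3 against 479 in *w1118* inputs, and 1550 at 2–3 hr against 1497 at 0–1 hr in *png50* inputs. Testis markers (*can*, *ocn*, *dj*, *Mst87F*) summed to at most 3.15 FPKM in any library. In S2 inputs 4 hemocyte markers (*srp*, *Pxn*, *NimC1*, *Hml*) summed to 48.8 FPKM in transfected and 34.0 in untransfected cells.

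Of the 32 subunits of the particles, 31 were above 0.5 FPKM in all 28 libraries. The exception was *Prosalpha1*, listed at 0 in every library, as was its near-copy *CG30382* (2R, now named *Prosalpha1R*), so its level is not known from these tables and 13 of the 14 genes of the 20S particle are described. The 31 mRNAs and the paralogs together took 0.992% of all fly FPKM in the *png50* input at 0–1 hr, 1.15% in the *eGFP-ME31B* input and 1.10% in the *w1118* input of the same age, against 0.401% in untransfected S2 cells. In the *w1118* input at 0–1 hr the 20S genes lay between the 94.6th and 97.2nd percentile of genes above 0.5 FPKM, and the 19S genes between the 86.1st and 95.7th.

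The 2 particles parted during the MZT. At 0–1 hr the median 20S mRNA stood at 2.11 times the median 19S mRNA in *png50*, 2.15 times in *eGFP-me31B;png50*, 2.03 times in *eGFP-ME31B* and 2.28 times in *w1118* inputs. In *eGFP-ME31B* embryos the ratio went on as 2.05 at 1–2 hr, 3.52 at 2–3 hr, 6.60 at 3–4 hr and 4.66 at 4–5 hr. In *w1118* embryos it was 2.35, 7.66, 4.34 and 2.14 at the same ages, so it was highest 1 hr earlier than in *eGFP-ME31B* embryos and at 4–5 hr lay below its first value. Stage markers differed between these strains as well. Zygotic markers (*ftz*, *eve*, *kni*, *slam*) summed to 274 FPKM at 2–3 hr and 27.8 at 3–4 hr in *w1118*, and to 107 and 62.4 in *eGFP-ME31B*. The maternal markers at 3–4 hr summed to 35.7 and 158 FPKM. Whether the collections matched in stage was not tested. In *png50* embryos the ratio of 20S to 19S levels was 2.40 at 2–3 hr. In S2 cells it was 1.57 in transfected and 1.58 in untransfected cells, the 2 lowest values of the 15 inputs.

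**Figure D1:**
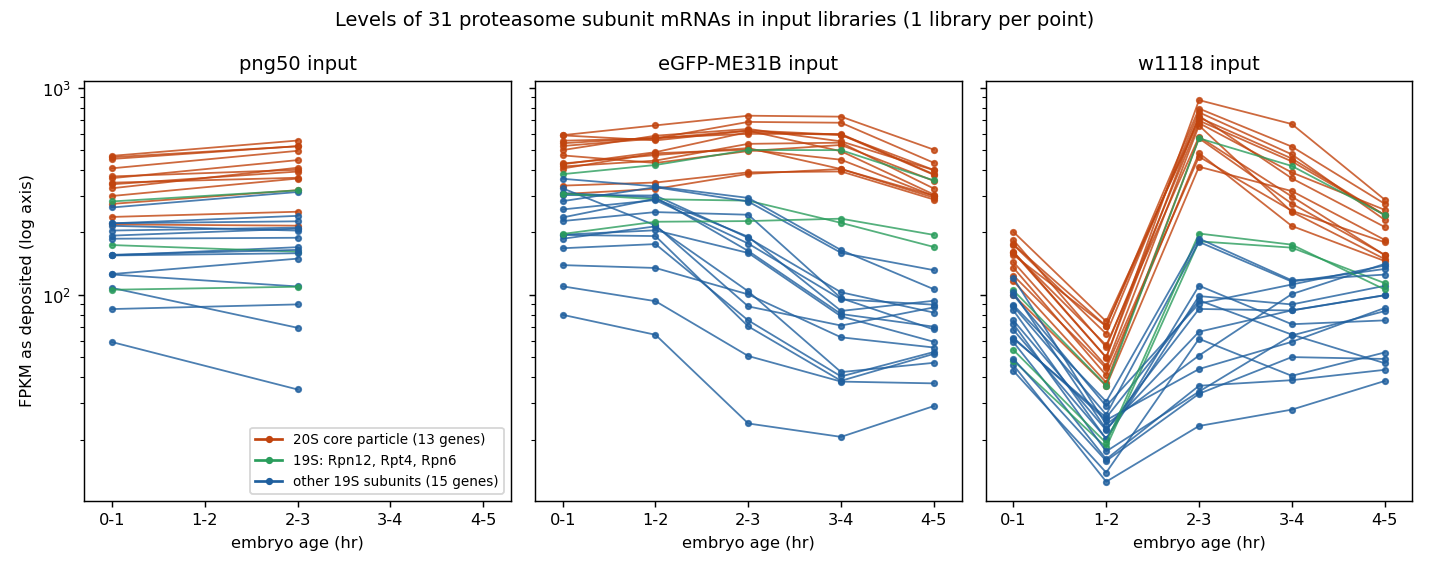
Level of each of 31 subunit mRNAs (FPKM as deposited, log axis) against embryo age (hr) in *png50*, *eGFP-ME31B* and *w1118* inputs, 1 library per point, with the 20S genes in red, *Rpn12*, *Rpt4* and *Rpn6* in green and the other 19S genes in blue. The 20S and 19S genes draw apart at 2–3 and 3–4 hr in *eGFP-ME31B* and *w1118* embryos and not in *png50* embryos, and the drop of every gene at 1–2 hr in *w1118* goes with the low summed FPKM of that library.

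**Figure D2:**
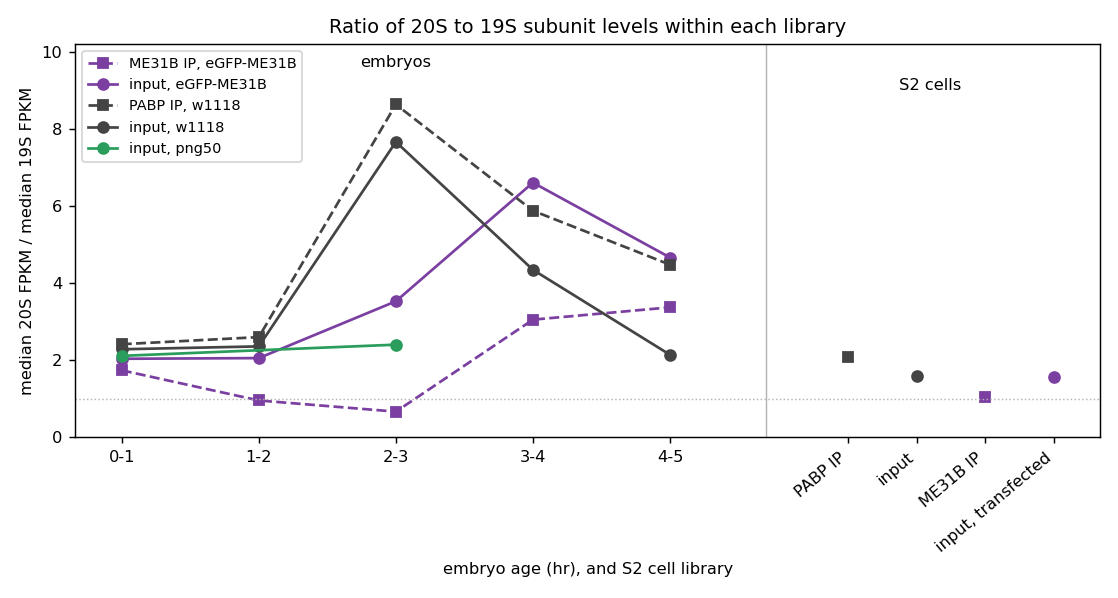
Median 20S FPKM divided by median 19S FPKM within each library (*eGFP-me31B;png50* not drawn), against embryo age (hr) and for S2 cells, 1 library per point, with IPs as squares and inputs as circles. The *w1118* input reached 7.66 at 2–3 hr and the *eGFP-ME31B* input 6.60 at 3–4 hr, while the ME31B IP fell to 0.66 at 2–3 hr.

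Relative to the median gene, most 19S mRNAs were at least 2-fold lower at 3–4 and 4–5 hr in both *eGFP-ME31B* and *w1118* embryos, and no 20S mRNA was at 2–3 or 3–4 hr. In *w1118* at 3–4 hr 10 of 13 genes of the 20S particle were nonetheless below the median gene. A change was counted where the level was at least 2-fold higher or lower than at 0–1 hr, relative to the median gene. At 2–3 hr 5 of 18 genes of the 19S particle were lower in *eGFP-ME31B* embryos, where 14.9% of all genes tested were, and 10 of 18 in *w1118* embryos, where 28% were. The 5 were among the 10. At 3–4 hr 14 of 18 were lower in *eGFP-ME31B* (24.5% of all genes) and 15 of 18 in *w1118* (29.5%), and 14 genes were shared. At 4–5 hr 15 of 18 were lower in *eGFP-ME31B* (24.9%) and 11 of 18 in *w1118* (29.3%), and 11 were shared. The share of all genes lower in both strains was not counted. Where most genes are lower in each strain, many must be shared, so the overlaps are description only. The *w1118* count at 4–5 hr depended on the settings: with both particles and the paralogs it was 18, against 3 with a pseudocount of 1 or with 0.5 FPKM in every library, 2 with no filter and 0 as deposited. Over all genes 2852 of 9747 were lower, against 1848 with a pseudocount of 1 and 917 as deposited. They were 1552 of 6216 with 0.5 FPKM in every library and 1627 of 16862 with no filter. The median log2 change of the 19S genes was −0.58, −1.55 and −1.62 at 2–3, 3–4 and 4–5 hr in *eGFP-ME31B*, and −1.14, −1.57 and −1.10 in *w1118*, where the values as deposited, without centring, gave 0.21 at 2–3 hr and 0.34 at 4–5 hr instead. The counts at 3–4 hr were not repeated under other settings. They rest on the centring in *w1118* too, where the median gene rose by a log2 of 1.65 as deposited. The median 19S mRNA had 84.1 FPKM there at 3–4 hr and 70.1 at 0–1 hr. The medians of the 20S genes were 0.23, 0.10 and −0.36 in *eGFP-ME31B*, and 0.71, −0.48 and −1.03 in *w1118*, with no gene at least 2-fold lower except 7 of 13 in *w1118* at 4–5 hr. Their direction depended on the scaling as well: scaled to the added worm RNA, the 20S medians at 2–3 hr were −0.43 in *eGFP-ME31B* and −0.48 in *w1118*, and as deposited the *w1118* median at 4–5 hr was 0.42. At 2–3 hr 15 of 18 genes of the 19S particle lay below every 20S gene in each strain, but not the same 15. *Rpn12* and *Rpt4* were exceptions in both strains, *Rpn5* in *eGFP-ME31B* only and *Rpn6* in *w1118* only.

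*Rpn11*, the deubiquitinase of the 19S lid, fell furthest at 2–3 hr in both strains. Its level was 327, 216, 87.9, 71.1 and 87.0 FPKM over the 5 ages in *eGFP-ME31B* and 120.3, 23.7, 50.9, 101 and 141 FPKM in *w1118*. Relative to the median gene this is a log2 change at 2–3 hr of −1.96 in *eGFP-ME31B* and −2.58 in *w1118*, although the deposited *w1118* value at 4–5 hr was above that at 0–1 hr. In *png50* it had 314 FPKM at 2–3 hr and 264 at 0–1 hr, a log2 change of 0.29. *Rpn7*, a lid subunit, had 195, 192, 70.4, 38.5 and 51.9 FPKM in *eGFP-ME31B* and 72.4, 17.6, 34.1, 63.6 and 83.4 FPKM in *w1118*, with changes at 2–3 hr of −1.54 and −2.43, and 110 FPKM at 2–3 hr against 125 at 0–1 hr in *png50*. *Rpt5*, an ATPase of the base, had 168, 176, 75.2, 40.4 and 53.0 FPKM in *eGFP-ME31B* and 49.0, 15.8, 33.3, 50.1 and 49.0 FPKM in *w1118*, with changes of −1.23 and −1.90. All of these were at their highest in *eGFP-ME31B* at 0–1 or 1–2 hr. Over both strains the deepest falls at 2–3 hr belonged to *Rpn11*, *Rpn1* and *Rpn7*. *Rpn1* and *Rpn2* are the scaffold subunits of the base, and changed by −1.81 and −1.19 in *eGFP-ME31B* and by −2.32 and −2.04 in *w1118*. The other genes past 2-fold at 2–3 hr, all in *w1118*, were *Rpn3* (−1.97), *Rpn8* (−1.85), *Rpn9* (−1.48), *Rpt2* (−1.16) and *Rpn10* (−1.11), of which *Rpn10* is a ubiquitin receptor.

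*Rpn12* and *Rpt4* did not follow the other 19S genes, and *Rpn6* did so less at 2–3 hr in *w1118*. *Rpn12*, a lid subunit, had 383, 423, 501, 499 and 357 FPKM in *eGFP-ME31B* and 105, 36.5, 570.0, 419 and 243 FPKM in *w1118*, with log2 changes at 2–3 hr of 0.32 in *eGFP-ME31B* and 1.10 in *w1118*. Its level lay within the range of the 20S genes at every age in both strains. *Rpt4*, an ATPase, had 197, 225, 227, 233 and 195 FPKM in *eGFP-ME31B* and 54.2, 19.2, 198, 175 and 106 FPKM in *w1118*, with changes of 0.14 and 0.52 at 2–3 hr. *Rpn6*, a lid subunit known to clamp the 2 particles together, had 308, 290, 285, 223 and 170 FPKM in *eGFP-ME31B* and 48.2, 18.4, 181, 169 and 114 FPKM in *w1118*, with changes of −0.18 and 0.57 at 2–3 hr and of −0.86 and −0.21 at 4–5 hr. Its direction in *w1118* rested on the 0–1 hr library: over the *eGFP-ME31B* input at 0–1 hr the *w1118* values of *Rpn6* were −0.76, −0.96 and −1.35 at 2–3, 3–4 and 4–5 hr, while at 2–3 hr *Rpn12* was at 0.58 and *Rpt4* at 0.01. In *eGFP-ME31B* at 2–3 hr *Rpn5* (0.03) and *Rpt1* (−0.08) changed less than *Rpn6*, which lay below every 20S gene. *Rpn12* was the only gene of the 19S particle at least 2-fold higher at 2–3 hr in *w1118*.

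The highest *w1118* levels at 2–3 hr belonged to a pair of beta ring genes. *Prosbeta6* had 590.0, 658, 733, 725 and 502 FPKM in *eGFP-ME31B* and 160.2, 49.8, 871, 668 and 288 FPKM in *w1118*, and *Prosbeta5*, which carries the chymotrypsin-like activity, had 427, 488, 612, 591 and 401 FPKM in *eGFP-ME31B* and 156, 70.5, 793, 519.5 and 275 FPKM in *w1118*. The log2 change at 2–3 hr was 0.24 in *eGFP-ME31B* and 1.10 in *w1118* for *Prosbeta6*, and 0.45 and 1.00 for *Prosbeta5*. They were the 2 genes of the 20S particle at least 2-fold higher in *w1118*, where 22.7% of all genes were. No 20S or 19S gene was at least 2-fold higher in *eGFP-ME31B* at 2–3 hr (17.4% of all genes), and at 4–5 hr none was in *eGFP-ME31B* (30.8%) or *w1118* (32.5%). The smallest changes at 2–3 hr among 20S genes were those of *Prosbeta4* (0.44 in *w1118*, −0.00 in *eGFP-ME31B*) and *Prosalpha4* (0.00 in *eGFP-ME31B*).

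In *w1118* embryos the particles came together again at 4–5 hr, through the 20S genes. At 4–5 over 2–3 hr, which leaves out the libraries of low summed FPKM, the median log2 change was −1.72 for 20S and 0.06 for 19S genes. *Rpn11* changed by 1.34 and *Rpn12* by −1.36 over that span. In *eGFP-ME31B* embryos the same span gave medians of −0.65 for 20S and −0.91 for 19S genes. Where the *eGFP-ME31B* input at 0–1 hr took the place of the *w1118* one, the *w1118* medians were 0.46 for 20S and −1.49 for 19S genes at 2–3 hr, and −1.07 and −1.21 at 4–5 hr. This comparison was added after the data were seen.

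**Figure D3:**
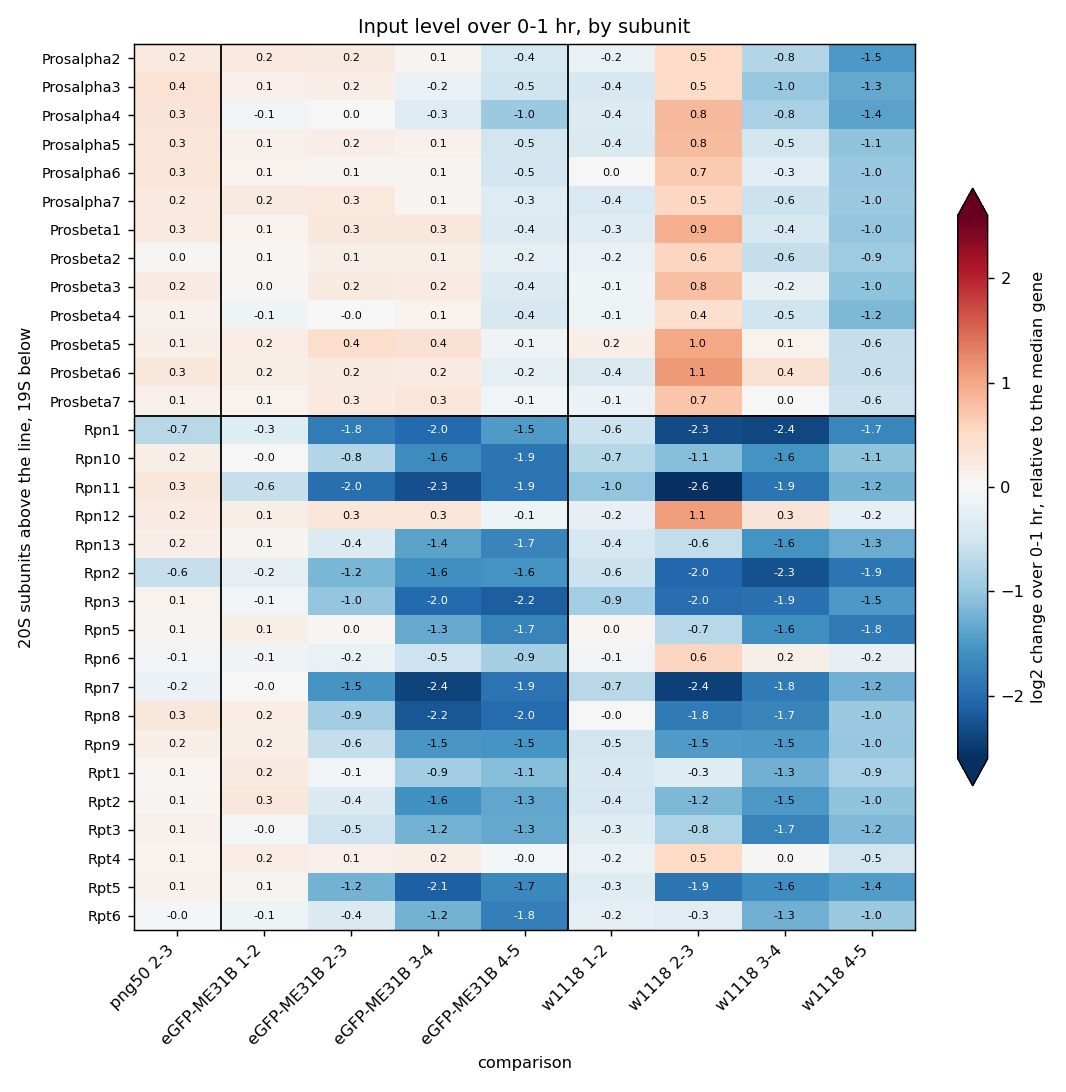
Log2 change of the input level over 0–1 hr, relative to the median gene, of 31 subunits (rows, 20S above the line and 19S below) at later ages (columns, hr) in *png50*, *eGFP-ME31B* and *w1118* embryos, 1 library per age. Most 19S rows are blue at 2–3 to 4–5 hr in *eGFP-ME31B* and *w1118*, the rows of *Rpn12* and *Rpt4* are at most pale blue, and the *png50* column is pale.

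In *png50* embryos the subunits changed little. The median log2 change at 2–3 over 0–1 hr was 0.25 for 20S genes and 0.09 for 19S genes, and no subunit was at least 2-fold higher or lower, where 3.16% of all genes were higher and 2.65% lower. The extremes were *Rpn1* (−0.72), *Rpn2* (−0.60) and *Rpn7* (−0.15) at the low end and *Prosalpha3* (0.37), *Prosalpha4* (0.33) and *Prosalpha5* (0.32) at the high end. *Rpn1* had 34.9 FPKM at 2–3 hr against 59.2 at 0–1 hr, and *Rpn2* had 69.3 against 108. Set directly against *w1118* at 2–3 hr, *png50* had 7 genes of the 19S particle at least 2-fold higher (28.5% of all genes were) and 5 of the 20S and 2 of the 19S particle at least 2-fold lower (26.3%). Higher were *Rpn11* (2.40), *Rpt5* (2.08), *Rpn8* (1.55), *Rpn7* (1.46), *Rpn3* (1.45), *Rpn10* (1.06) and *Rpn5* (1.04). Lower were *Prosbeta2* (−1.33), *Prosbeta5* (−1.20), *Prosalpha6* (−1.20), *Prosbeta4* (−1.14), *Rpt4* (−1.07), *Rpn12* (−1.06) and *Prosbeta1* (−1.05). These tables were quantified separately, and the difference between the strains has no replicate check. The medians of *png50* over *w1118* at 2–3 hr were −0.87 for 20S and 0.69 for 19S genes. *eGFP-ME31B* over *w1118* inputs of that age parted the particles the same way, with smaller medians of −0.54 and 0.41. In each comparison 16 of 18 genes of the 19S particle lay above every 20S gene. The split from *w1118* was thus not particular to *png50* embryos. Between *eGFP-ME31B* and *w1118* inputs at 0–1 hr the medians differed by −0.04 for 20S and 0.01 for 19S genes. *Rpn6* was the only subunit at least 2-fold higher in *eGFP-ME31B* (1.01, where 12.3% of all genes were higher) and none was lower (10.1%).

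ME31B binding, the log2 ratio of IP to input relative to the median gene, set the same particles apart after 0–1 hr. The input that divides the IP is also the later level in the *eGFP-ME31B* change, so a lower input raises binding by itself. The *w1118* changes share no library with this binding. At 0–1 hr no subunit was at least 2-fold above (8.39% of all genes) or below (18.9%) the median gene in *eGFP-ME31B* embryos, and the medians were 0.18 for 20S and 0.36 for 19S genes. The highest were *Rpn13* (0.78), *Rpt2* (0.77) and *Prosalpha7* (0.71), and the lowest *Prosbeta1* (−0.42), *Rpn1* (−0.37) and *Rpn12* (−0.30). At 1–2 hr the 19S median was 0.77, with 5 genes at least 2-fold above (15.7%), and the 20S median −0.30. These were *Rpn11* (1.41), *Rpt5* (1.24), *Rpt2* (1.16), *Rpn8* (1.14) and *Rpn3* (1.05). At 2–3 hr the 19S median was 1.10, with 9 genes at least 2-fold above (23.9%), and the 20S median −1.45, with all 13 genes under the median gene and 7 of them at least 2-fold (28%). 15 of 18 genes of the 19S particle lay above every 20S gene.

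*Rpn11* had the highest ME31B binding of the subunits at 2–3 hr (2.28). Its mRNA had 511, 596, 486, 206 and 204 FPKM in the IPs over the 5 ages, against 327, 216, 87.9, 71.1 and 87.0 FPKM in the inputs, so up to 2–3 hr the IP value changed less than the input value. *Rpt5* (1.82) had 302 FPKM in the IP and 75.2 in the input at 2–3 hr. *Rpn8* (1.73), which with *Rpn11* forms the deubiquitinating pair, had 394 FPKM in the IP and 104 in the input. The others at least 2-fold above were *Rpn3* (1.48), *Rpt2* (1.46), *Rpn5* (1.35), *Rpn7* (1.29), *Rpn10* (1.23) and *Rpn9* (1.20). At the other end stood *Prosbeta3* (−2.63), with 126 FPKM in the IP and 684 in the input, and *Prosbeta1* (−2.50), which carries the caspase-like activity, with 108 and 536 FPKM. *Prosbeta7* (−2.11) and *Prosbeta6* (−2.08) followed, then *Rpt4* (−1.80), *Prosbeta5* (−1.70), *Rpn12* (−1.63), *Prosalpha5* (−1.58) and *Prosalpha6* (−1.45). *Rpt4* and *Rpn12* stood with the 20S genes in binding as in the change of their level, although the level of *Rpt4* itself was below every 20S gene at 2–3 hr. Binding and the *eGFP-ME31B* change share the input at 2–3 hr, so that likeness is partly built in. The *w1118* change, which shares no library with the binding, also put both genes within the 20S range. *Rpn6* had a binding of −0.45. *Rpn1* and *Rpn2*, which have the 2 longest transcripts, were near the median gene (−0.04 and 0.31) although their levels fell with the other 19S genes.

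Within the ME31B IPs the ratio of median 20S to median 19S FPKM was 1.73, 0.952, 0.662, 3.05 and 3.37 over the 5 ages. At 3–4 hr 7 genes of the 19S particle were at least 2-fold above the median gene (21%), led by *Rpt2* (1.49), *Rpn10* (1.39) and *Rpn13* (1.26) and followed by *Rpn11* (1.17), *Rpn5* (1.10), *Rpn8* (1.07) and *Rpn3* (1.04), and *Rpt4* (−1.63) and *Rpn1* (−1.13) were below (20.6%). The median binding was 0.84 for 19S and −0.11 for 20S genes. At 4–5 hr only *Rpn10* (1.01) was above (21.5%) and only *Rpn1* (−1.55) below (20.1%), and the medians were 0.55 for 19S and 0.02 for 20S genes. *Rpn11* (0.95) and *Rpn13* (0.94) came next after *Rpn10* at the high end, and *Rpt4* (−0.91) and *Prosalpha6* (−0.26) after *Rpn1* at the low end. With the *w1118* input of that age as the divisor the order of the particles turned, with medians of 0.066 for 19S and 0.47 for 20S genes.

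In *eGFP-me31B;png50* embryos at 0–1 hr the medians of ME31B binding were −0.28 for 20S and −0.39 for 19S genes, against 0.18 and 0.36 in *eGFP-ME31B* embryos of that age. With the *png50* input as the divisor the *eGFP-me31B;png50* medians were 0.037 and −0.23, so the sign of the 20S median turned. *Prosbeta1* (−1.47) and *Rpn7* (−1.20) were at least 2-fold below the median gene, where 14.8% of all genes were, and none was above (5.68%). *Prosbeta1* had 138 FPKM in the IP and 306 in the input, and *Rpn7* had 83.2 and 152 FPKM. The highest were *Rpn5* (0.73), *Rpn13* (0.42) and *Prosbeta2* (0.27). Across the 31 subunits binding in these embryos and in *eGFP-ME31B* embryos, which share no library, had a Spearman rho of 0.70. The genes share the platform and their lengths and are not independent.

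In S2 cells no subunit was at least 2-fold above (8.11%) or below (7.8%) the median gene in ME31B binding. The medians were −0.65 for 20S and −0.32 for 19S genes, with *Rpt3* (0.76), *Rpt5* (0.67) and *Rpn1* (0.22) highest and *Prosalpha4* (−0.96), *Prosalpha7* (−0.94) and *Prosbeta2* (−0.79) lowest. *Rpt3* had 112 FPKM in the IP against 71.0 in the input. *Rpn11* was at −0.35 in S2 cells, against 0.50 in *eGFP-ME31B* embryos at 0–1 hr.

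**Figure D4:**
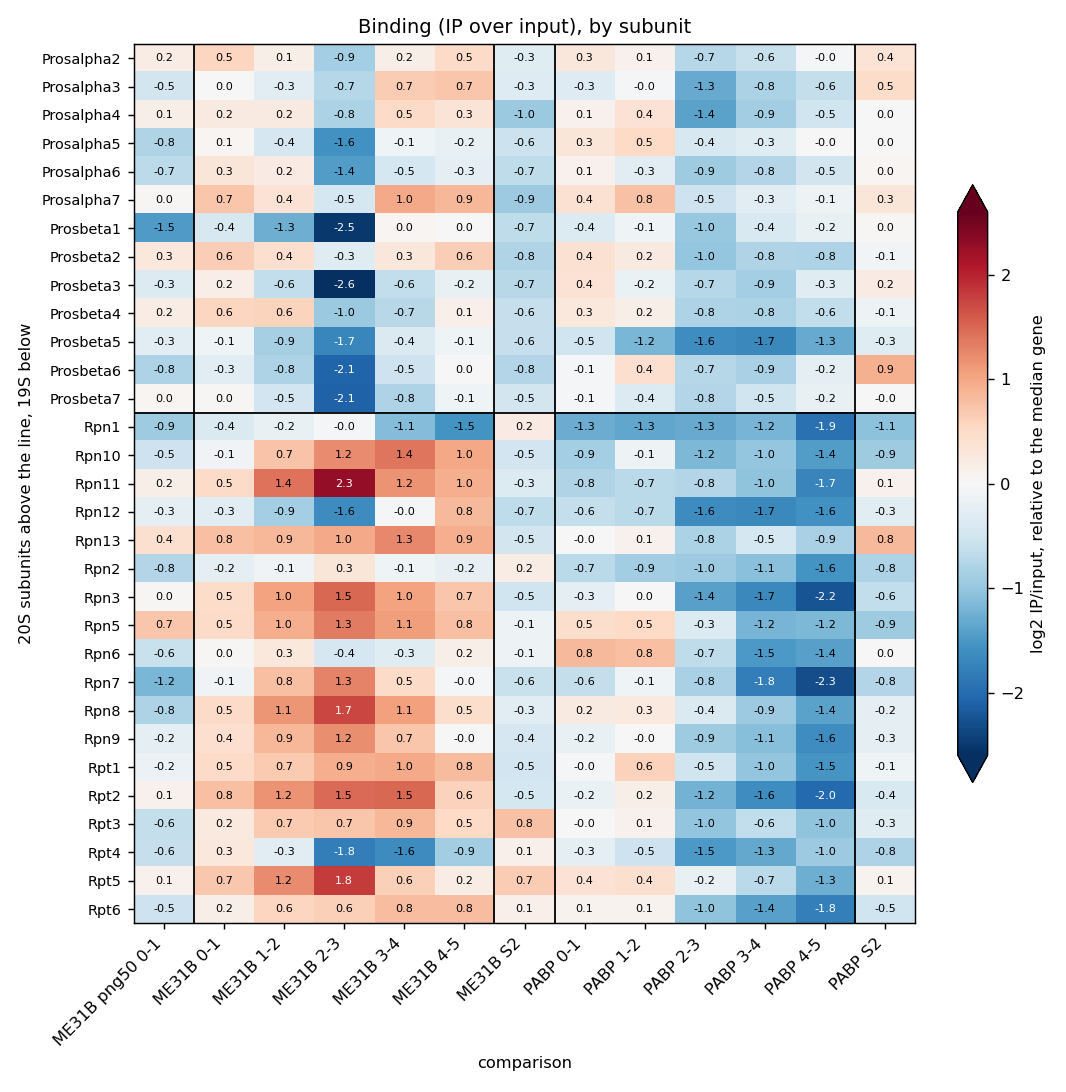
Log2 ratio of IP to input FPKM, relative to the median gene, of 31 subunits (rows, 20S above the line and 19S below) for ME31B in *eGFP-me31B;png50* embryos, *eGFP-ME31B* embryos by age (hr) and S2 cells, and for PABP in *w1118* embryos by age and S2 cells, 1 library pair per column. The ME31B column at 2–3 hr sets red 19S rows against blue 20S rows except for *Rpn12* and *Rpt4*, and the PABP columns turn blue from 2–3 hr on.

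PABP binding showed no such division early, and later lay below the median gene for both particles. At 0–1 hr the medians were 0.11 for 20S and −0.19 for 19S genes, no subunit was at least 2-fold above (10.4%) and *Rpn1* was below (−1.28; 17.8% of all genes). *Rpn1* had 47.5 FPKM in the IP and 45.8 in the input. *Rpn6* (0.84), *Rpn5* (0.45) and *Prosalpha7* (0.40) were highest, and *Rpn10* (−0.88) and *Rpn11* (−0.78) followed *Rpn1* at the low end. At 1–2 hr *Rpn1* (−1.34) and *Prosbeta5* (−1.19) were at least 2-fold below (18.6%). All 31 subunits were below the median gene at 2–3, 3–4 and 4–5 hr, and 11, 15 and 17 of them at least 2-fold, where 15.9%, 11.7% and 12.1% of all genes were. The lowest were *Rpn12* (−1.64), *Prosbeta5* (−1.62) and *Rpt4* (−1.49) at 2–3 hr, and *Rpn7* (−1.80), *Rpn3* (−1.68) and *Prosbeta5* (−1.67) at 3–4 hr. At 4–5 hr the 17 comprised 16 of 18 genes of the 19S particle and *Prosbeta5* (−1.31). No subunit was at least 2-fold above at that age (11.7%). The median was −1.55 for 19S and −0.32 for 20S genes, and 13 of 18 genes of the 19S particle lay below every 20S gene. With the *eGFP-ME31B* input of that age as the divisor the medians were −1.10 for 19S and −0.77 for 20S genes, so the gap was smaller.

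*Rpn7* was lowest at 4–5 hr (−2.31), with 13.6 FPKM in the PABP IP and 83.4 in the input. *Rpn3* (−2.25) had 17.0 FPKM in the IP and 99.6 in the input, and *Rpt2* (−2.03) had 19.8 and 99.5 FPKM. *Rpn3* is a scaffold subunit of the lid, and *Rpt2* an ATPase that opens the gate of the core particle. *Prosalpha5* (−0.00), *Prosalpha2* (−0.04) and *Prosalpha7* (−0.13) were highest. *Prosalpha5* had 172 FPKM in the IP and 213 in the input. *Rpn12*, whose level was that of a 20S gene, was with the 19S genes in PABP binding (−1.57 at 4–5 hr). Its ME31B binding was that of a 20S gene at 2–3 hr. At 4–5 hr it was 0.84, against medians of 0.55 for 19S and 0.02 for 20S genes. *Rpn11* had 177, 96.5, 10.4, 31.5 and 34.5 FPKM in the PABP IPs, against 120.3, 23.7, 50.9, 101 and 141 in the inputs. In S2 cells the medians were 0.03 for 20S and −0.35 for 19S genes, none was at least 2-fold above (15.8%), and *Rpn1* alone was below (−1.07; 9.69%). *Prosbeta6* (0.93), *Rpn13* (0.84) and *Prosalpha3* (0.49) were highest there. *Prosbeta6* had 186 FPKM in the IP and 135 in the input.

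ME31B binding at 1–2 hr was set against the change of the following hour in *w1118* inputs, which share no library with it. Over the 31 subunits the Spearman rho was −0.77, and −0.47 over all 6643 genes tested. The genes are not independent, and the starting *w1118* library is the one of lowest summed FPKM. It was −0.51 within the 13 genes of the 20S particle and −0.54 within the 18 of the 19S particle. *Rpn11* had an ME31B binding of 1.41 and a change of −1.41 relative to the median gene from 1–2 to 2–3 hr, and *Prosbeta1* a binding of −1.26 and a change of 1.40. *Rpn1* and *Rpn2* had bindings of −0.19 and −0.09 and changes of −1.63 and −1.34. For the *w1118* steps from 2–3 to 3–4 hr and from 3–4 to 4–5 hr the rho over the subunits was 0.61 and 0.62, and 0.07 and 0.20 over all genes. Within the particles it was −0.41 for 20S and 0.57 for 19S genes in the earlier step, and 0.63 and 0.31 in the later. The value over the subunits in the earlier step thus did not hold within the 20S genes. The strains differed in the first of these steps: the median change at 3–4 over 2–3 hr was −0.04 for 20S and −0.88 for 19S genes in *eGFP-ME31B*, and −1.12 and −0.40 in *w1118*, beside an ME31B binding at 2–3 hr of −1.45 and 1.10. At 0–1 hr, with the change to 1–2 hr, it was 0.02 over the subunits. In *eGFP-ME31B* embryos the binding and the change share the input of the starting age, so only the values are given: from 1–2 to 2–3 hr *Rpn11* changed by −1.41, *Rpn7* by −1.56, *Rpn1* by −1.53 and *Prosbeta1* by 0.16.

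**Figure D5:**
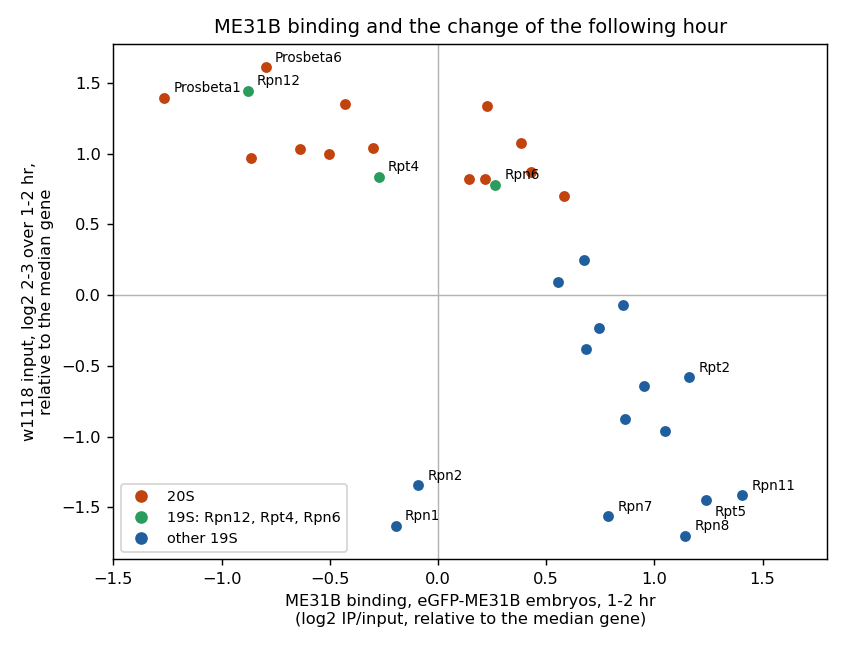
Log2 level of the *w1118* input at 2–3 over 1–2 hr against ME31B binding in *eGFP-ME31B* embryos at 1–2 hr, both relative to the median gene, for 31 subunits (20S red, *Rpn12*, *Rpt4* and *Rpn6* green, other 19S blue). The 19S genes with a binding above 0.5 lie between 0.25 and −1.70, the 20S genes between 0.70 and 1.61, and *Rpn1* and *Rpn2* lie apart at a binding near 0.

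Transcript length differs between the particles and moved with these values. In the annotation the 20S transcripts are 815 to 1215 nt long (median 971) and the 19S transcripts 995 to 3412 nt (median 1534). Over the 31 subunits length had a rho of 0.66 with ME31B binding at 2–3 hr and of −0.69 and −0.67 with the input change at 2–3 hr in *eGFP-ME31B* and *w1118*. Within the 20S genes the rho with these was 0.22, 0.08 and 0.18, and within the 19S genes −0.02, −0.14 and −0.21. Over all genes it was −0.16, −0.11 and −0.13. In S2 cells length had a rho of 0.67 with ME31B binding over the subunits and 0.63 over 6029 genes, and of −0.58 and −0.53 with PABP binding. The part of length in these results was not tested further.

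The paralogs, many of them known from the male germ line, were mostly at or near 0. 4 of 15 (*Prosalpha3T*, *Prosbeta2R1*, *Prosbeta4R2*, *Prosbeta5R1*) were listed at 0 in all 28 libraries, and 6 were above 0 somewhere but never reached 0.5 FPKM. *Prosalpha4T1* reached 0.631 and *Rpn12R* 0.586 FPKM, in 1 library each, the ME31B IPs at 3–4 and 4–5 hr. *Rpn12R* lies within *Sytbeta* on the same strand. The other 3 appeared with age. *Rpt3R*, a paralog of the ATPase *Rpt3* (3R, 9754735 to 9756510 in BDGP6, the dm6 build), had 1.63 FPKM at 2–3 hr and 1.67 at 0–1 hr in *png50*, 0.260, 0.251, 0.549, 3.57 and 4.06 FPKM over the 5 ages in *eGFP-ME31B*, and 0.219, 0.126, 2.33, 5.79 and 4.34 FPKM in *w1118*. At 3–4 hr in *w1118* this was 14.2% of the level of *Rpt3*. *Rpt6R* had 0.184, 0.405, 0.845, 3.88 and 5.39 FPKM in *eGFP-ME31B*, 0.0638, 0.0503, 0.703, 3.34 and 1.91 FPKM in *w1118*, and was listed at 0 in both *png50* inputs. It was highest in S2 cells, with 14.2 FPKM in transfected and 16.8 in untransfected cells, 23.6% of the level of *Rpt6* in the untransfected cells. *Prosbeta2R2* had 0.207, 0.131, 0.514, 2.29 and 2.24 FPKM in *eGFP-ME31B* and was listed at 0 at 0–1 and 1–2 hr in *w1118*, with 0.888, 4.89 and 2.85 FPKM after that. Both S2 inputs listed it at 0.

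Genes around the proteasome fell on both sides. Of 16 genes of the ubiquitin pathway and of proteasome assembly 15 passed the filter, and at 2–3 hr 0 were at least 2-fold higher and 4 lower in *eGFP-ME31B*, and 2 higher and 5 lower in *w1118*. Of all genes 17.4% were higher and 14.9% lower in *eGFP-ME31B*, and 22.7% and 28% in *w1118*, so the *w1118* counts were near or below the shares over all genes. *Npl4*, a cofactor of the segregase *TER94*, was lowest in *w1118* (−2.71) and at −1.76 in *eGFP-ME31B*, where *CG9588* was lowest (−2.63). *Uba1*, the ubiquitin-activating enzyme, was at −1.48 in *eGFP-ME31B* and −2.37 in *w1118*. The higher genes in *w1118* were *Rad23* (1.08), a shuttle for ubiquitinated proteins, and *Pomp* (1.02), the assembly chaperone of the 20S particle, which had an ME31B binding of −1.69 at 2–3 hr. *Ufd1-like* had the highest ME31B binding at 2–3 hr (2.01) and *Ubi-p63E* the lowest (−3.30). *cnc*, the fly homologue of the factor that drives proteasome genes, was at −3.03 in *eGFP-ME31B* and −2.18 in *w1118* at 4–5 hr. In *png50* none of the 15 was past 2-fold, where only 3.16% of all genes were higher and 2.65% lower, so this is near the share over all genes. The COP9 signalosome, a complex related to the 19S lid, was instead like the 20S genes. Of 9 genes 8 passed, with a median change at 2–3 hr of 0.34 in *eGFP-ME31B* and 0.59 in *w1118*, none lower in either and 3 higher in *w1118* (*CSN8* 1.47, *alien* 1.29, *CSN7* 1.09), where 22.7% of all genes were. Their median ME31B binding at 2–3 hr was −1.72, with 6 of 8 at least 2-fold below the median gene (28% of all genes) and *alien* lowest (−3.63).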

How the data were processed

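The authors depleted rRNA, made stranded libraries with added *C. elegans* RNA, trimmed the reads, mapped them with STAR 2.5.2a to dm6 and ce10 and deposited the FPKM that Cufflinks 2.2.1 gave per gene, with no further scaling. Whether the counting used strand is not given in the sources used here. Input changes were log2((FPKM + 0.1)/(FPKM + 0.1)) over genes with at least 0.5 FPKM in 1 or more inputs of the strain (in either library between strains), so a fold of low genes is understated. Binding was log2(IP/input), for genes whose FPKM exceeded 0.5 throughout a strain's or cell line's libraries. Both were centred on the median gene, with a limit of 2-fold and no test, since each condition had 1 library (Python 3.11.15, pandas 2.3.3, scipy 1.17.1). The calculation was tested on simulated data. Depth was estimated from the smallest steps of FPKM with an assumed fragment of 200 nt. Promoter motifs were not searched. The pathway gene *CG13779*, now named *Sem1*, had no row under the older symbol in all 3 deposited tables, so it has no value here. Roles came from symbols, and lengths and positions from Ensembl release 115. *Rpt1* overlaps *CG17985* on its strand, so its value is uncertain. Named subunits were the 3 highest, the 3 lowest and up to 10 past 2-fold per comparison, with every paralog that reached 0.5 FPKM; other values illustrate the pattern. The members and lists were chosen with earlier results of these data known.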

Additional observations from a re-analysis of the deposited data

Results flagged for a closer look

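The following medians, in log2 relative to the median gene, had opposite signs in groups set to the same contrast. Each rests on 1 library per condition, and none of the differences was tested. At 1–2 over 0–1 hr the 20S median was 0.10 in *eGFP-ME31B* and −0.17 in *w1118* inputs, and the 19S median 0.032 and −0.43. At 3–4 over 0–1 hr the 20S median was 0.10 in *eGFP-ME31B* and −0.48 in *w1118*. At 2–3 over 0–1 hr the 19S median was 0.089 in *png50* and −1.14 in *w1118*. At 4–5 over 2–3 hr the 19S median was −0.91 in *eGFP-ME31B* and 0.064 in *w1118*.

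ME31B binding had a 20S median of −0.65 in S2 cells and 0.18 in *eGFP-ME31B* embryos at 0–1 hr, and a 19S median of −0.32 and 0.36. In *eGFP-me31B;png50* embryos the medians were −0.28 for 20S and −0.39 for 19S genes, against 0.18 and 0.36 in *eGFP-ME31B* embryos. With the *png50* input as the divisor the 20S median in *eGFP-me31B;png50* embryos was 0.037, so this difference in sign does not hold there.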

How the results depend on the processing

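No paired analysis was possible because each condition had 1 library, and no library was left out for the same reason. The counts here are of all subunit genes past 2-fold, paralogs included, so some exceed those above. Of 120 counts under alternatives 68 stayed within 1.5 times the original; the cause of the other changes was not tested. The counts that moved are given with the original after "against". A new zero point or filter also changes the calls over all genes, so these counts are not results about the subunits alone.

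As deposited, without centring, *w1118* had 21 higher against 5 and 2 lower against 10 at 2–3 hr, and 5 higher against 3 and 0 lower against 18 at 4–5 hr. There the *w1118* medians turned positive, to 0.21 for 19S genes at 2–3 hr and to 0.34 for 19S and 0.42 for 20S genes at 4–5 hr. *eGFP-ME31B* had 2 higher against 1 at 2–3 hr, and *eGFP-ME31B* over *w1118* at 0–1 hr 29 higher against 1. Scaled to the worm RNA, *w1118* had 0 higher against 5 at 2–3 hr, and 1 higher against 3 and 31 lower against 18 at 4–5 hr. *eGFP-ME31B* had 13 lower against 5 at 2–3 hr and 31 against 15 at 4–5 hr, *png50* 2 lower against 0, and *eGFP-ME31B* over *w1118* 31 higher against 1. Over all genes, *w1118* at 2–3 hr had 5727 of 9747 higher as deposited, against 2209. Scaled to the worm RNA, *w1118* at 4–5 hr had 6111 of 9747 genes lower, against 2852, and *eGFP-ME31B* 5080 of 9250, against 2303. *eGFP-ME31B* over *w1118* had 6082 of 7284 genes higher as deposited and 7218 with the worm scaling, against 894.

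With no filter, *w1118* had 20 higher against 5 and 4 lower against 10 at 2–3 hr and 2 lower against 18 at 4–5 hr. *eGFP-ME31B* had 3 higher against 1 at 2–3 hr and 5 against 3 at 4–5 hr, and *eGFP-ME31B* over *w1118* 30 higher against 1. With 0.5 FPKM in every library, *w1118* had 8 higher against 5 at 2–3 hr, and 0 higher against 3 and 3 lower against 18 at 4–5 hr, and *eGFP-ME31B* 0 higher against 1 at 2–3 hr and 0 against 3 at 4–5 hr. With a pseudocount of 1, *w1118* had 16 higher against 5 at 2–3 hr and 3 lower against 18 at 4–5 hr, and *eGFP-ME31B* 0 higher against 1 at 2–3 hr. Over all genes, those higher in *w1118* at 2–3 hr were 5281 of 16862 with no filter and 1260 of 6216 with 0.5 FPKM in every library. They were 2209 of 9747 both with a pseudocount of 1 and originally. With the *eGFP-ME31B* input at 0–1 hr as the earlier library, an alternative chosen after seeing the data, *w1118* had 3 higher against 5 at 2–3 hr.

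With *Act5C* as zero, ME31B binding had 17 higher against 0 at 0–1 hr, 23 higher against 1 and 0 lower against 1 at 4–5 hr, 2 higher against 0 in S2 cells, and 31 higher against 0 and 0 lower against 2 in *eGFP-me31B;png50*. PABP binding had 10 higher against 0 and 0 lower against 1 at 0–1 hr, 4 lower against 17 at 4–5 hr, and 2 higher against 0 and 0 lower against 1 in S2 cells. Over all genes with this zero, ME31B binding had 2739 of 6699 higher at 0–1 hr, against 562, and 3535 at 4–5 hr, against 1438. It had 6063 of 6779 higher in *eGFP-me31B;png50*, against 385. PABP binding had 2547 of 6086 genes higher at 0–1 hr, against 633, and 117 lower at 4–5 hr, against 738. With genes above 0 in the pair only, ME31B binding had 2 lower against 0 at 0–1 hr and 3 higher against 1 and 2 lower against 1 at 4–5 hr, and PABP binding 2 lower against 1 in S2 cells. Above 2 FPKM in every library, ME31B binding had 0 higher against 1 at 4–5 hr. With the other strain's or culture's input, ME31B binding had 1 higher and 2 lower against 0 at 0–1 hr, 5 higher and 2 lower against 1 at 4–5 hr, and 8 lower against 0 in S2 cells, and PABP binding 0 lower against 1 at 0–1 hr, and 2 higher against 0 and 0 lower against 1 in S2 cells. Over all genes, ME31B binding in S2 cells then had 864 of 7309 lower, against 570. With these inputs the ME31B medians at 4–5 hr were 0.066 for 19S and 0.47 for 20S genes, the reverse of the original order. The ratio of 20S to 19S levels within a library does not depend on these scalings.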
